A study of Homo sapiens with 6 samples.

Results

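The HDAC, NuRD and SIN3 corepressor genes were chosen by name and function: the zinc-dependent histone deacetylases, the sirtuins, the core subunits of the NuRD complex, the SIN3 scaffolds, the CoREST proteins and NCOR1. They make up 36 of the 57820 genes in the deposited tables, and each of the 36 names matched a gene. RNA was sequenced from untreated AID-DIvA cells, a U2OS-derived osteosarcoma line that carries the restriction enzyme AsiSI in an inducible form, which had not been induced in these samples. There were 3 WT samples and as many ARID1A-KO samples, whose replicate numbers ran from 3 to 5, and all 6 carry the AsiSI construct. ARID1A was knocked out with Cas9 and a pair of guides, and which clone or clones were sequenced is not given in the sources used here. The study links ARID1A, a DNA-binding subunit of the BAF chromatin remodelling complex, to the deacetylase HDAC1, so the comparison asks whether the transcripts of HDAC1 and of the complexes it works in differ between the genotypes.

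Histone deacetylases take acetyl groups off lysines of histones and other proteins, and acetylation of histone tails goes with open, transcribed chromatin. HDAC1 and HDAC2 work almost entirely inside large corepressor complexes. NuRD joins them to a CHD-family nucleosome remodeller, MTA scaffolds, the histone chaperones RBBP4 and RBBP7, GATAD2 bridging proteins and either MBD2 or MBD3. SIN3 complexes are built on SIN3A or SIN3B, and CoREST joins HDAC1 or HDAC2 to the lysine demethylase KDM1A through an RCOR protein. Sirtuins are unrelated deacylases that consume NAD+.

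The sequences below are the stretches just upstream of 5 members, shown for HDAC1, for the member with the largest fall (HDAC4), and for NuRD subunits from families whose genes differed in their call or direction (RBBP7, MBD2 and MBD3). They were taken from RefSeq promoters of GRCh38.p14, which start 250 bases before a start listed for the gene. Bases past the start of the gene in the deposited tables were left off. Each runs 5′ to 3′ on the gene's own strand. Capitals mark matches on either strand to the GC box GGGCGG, the CCAAT box CCAAT or the E-box CACGTG. The positions are chr1:32291833-32292082 on the plus strand for HDAC1, and on the minus strand chr2:239401655-239401899 for HDAC4, chrX:16870415-16870612 for RBBP7, chr18:54224789-54224919 for MBD2 and chr19:1592884-1593115 for MBD3.
HDAC1: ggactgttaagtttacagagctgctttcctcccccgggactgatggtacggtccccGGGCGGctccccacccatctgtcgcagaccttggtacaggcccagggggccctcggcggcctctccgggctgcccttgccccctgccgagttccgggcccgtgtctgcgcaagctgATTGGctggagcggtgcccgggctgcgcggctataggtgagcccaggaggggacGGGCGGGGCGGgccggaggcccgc
HDAC4: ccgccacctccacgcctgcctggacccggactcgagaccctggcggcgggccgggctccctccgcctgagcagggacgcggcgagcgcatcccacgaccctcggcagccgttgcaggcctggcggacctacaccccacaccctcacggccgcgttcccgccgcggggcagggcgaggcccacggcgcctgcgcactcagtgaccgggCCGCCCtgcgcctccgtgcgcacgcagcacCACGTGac
RBBP7: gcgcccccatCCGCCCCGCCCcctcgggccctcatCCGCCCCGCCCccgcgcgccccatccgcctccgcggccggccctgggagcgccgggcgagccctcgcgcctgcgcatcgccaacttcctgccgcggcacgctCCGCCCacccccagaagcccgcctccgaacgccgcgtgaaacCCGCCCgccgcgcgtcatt
MBD2: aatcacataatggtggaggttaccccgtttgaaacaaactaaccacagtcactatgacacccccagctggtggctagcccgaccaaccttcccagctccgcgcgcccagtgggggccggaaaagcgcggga
MBD3: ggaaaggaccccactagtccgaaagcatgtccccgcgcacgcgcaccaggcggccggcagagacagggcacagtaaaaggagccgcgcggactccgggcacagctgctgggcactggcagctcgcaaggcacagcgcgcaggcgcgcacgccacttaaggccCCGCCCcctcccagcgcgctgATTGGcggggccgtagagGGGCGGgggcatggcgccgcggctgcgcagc

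The stretch of RBBP7 holds 6 GC boxes in 198 bases and that of HDAC1 holds 3. No searched motif occurs in the 131 bases shown for MBD2. Its promoter before bases were left off does hold a GC box, so the lack applies to the shortened stretch only. HDAC4 has 1 GC box and 1 E-box. MBD3 has 2 GC boxes and 1 CCAAT box. In all, 32 members matched 53 of the 35116 promoters in the table, by symbol, and CHD5, RCOR2, SIRT7 and HDAC5 had no entry. Some members had several entries, and some entries began far inside the gene as placed in the deposited tables. Examples are entries of HDAC9 and HDAC4 that began 422321 and 134138 bases past the gene's start. The shares below count every entry. Over the 250 upstream bases the member promoters had a median of 23 CpG dinucleotides and 67.2% G and C, against 11 and 58.0% over all promoters. The GC box occurred in 62.3% of the member promoters and 42.6% of all, the CCAAT box in 39.6% and 32.0%, and the ETS core CCGGAAG in 17.0% and 8.52%. The E-box occurred in 5.66% and 6.34%, and the AP-1 site TGACTCA in 0 of the 53 member promoters and in 4.2% of all. All motifs were searched on both strands, boxes that share a base were counted apart, and a match is a description of the letters, not a bound site.

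The 6 libraries held between 54512105 and 84088708 reverse-stranded counts, so even the lowest member, HDAC10, had at least 28 counts in every library. ARID1A had 166, 178 and 177 CPM in WT replicates 3, 4 and 5 and 25.1, 27.5 and 25.2 CPM in the corresponding ARID1A-KO replicates, in the direction of the labels (log2 fold change -2.74 ± 0.07, SE, adjusted p = 9.66e-08). Adjusted p-values were obtained by edgeR (quasi-likelihood fit, Benjamini-Hochberg over the 19599 genes tested), and a gene is called at an adjusted p under 0.05. CPM values are counts scaled to library size with TMM normalization. The study describes its RNA-seq data as biological replicates from independent experiments, and the p-values measure the spread between the 3 samples of a genotype. As the clone or clones are not given, the p-values may not include the spread between clones. An effect of ARID1A loss cannot be told apart here from a difference between clones. VIM, SPARC and COL1A1, expressed by mesenchymal cells, were abundant, but not every such marker was. COL1A2 was almost absent, with means of 0.23 CPM in WT and 0.16 CPM in ARID1A-KO cells. RUNX2 had means of 14.96 CPM in WT and 14.58 CPM in ARID1A-KO cells. Neither COL1A2 nor RUNX2 was called. The osteoblast genes SP7, BGLAP and IBSP had too few counts to be tested. Over the 9 mesenchymal and osteoblast markers, 6 were tested, 1 was higher and 3 were lower, and their summed level was 3392 to 3801 CPM in WT and 4635 to 5222 CPM in ARID1A-KO samples. VIM alone carried the higher sum, with means of 2354 and 4224 CPM in WT and ARID1A-KO cells, while SPARC went from 757 to 410, COL1A1 from 447 to 322 and ALPL from 9.68 to 1.76 CPM. Summed levels of other cell types were far lower in both genotypes: at most 7.89 CPM for 3 epithelial markers, 2.91 CPM for 4 blood markers and 0.514 CPM for the 1 endothelial marker matched. In these bulk samples, fewer cells of a type and less RNA per cell cannot be told apart.

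Of the 36 members, all 36 passed the filter on low counts and 15 were called between the genotypes, 7 higher and 8 lower in ARID1A-KO cells. That is 41.7% of the members, beside 36.2% of all genes tested. In all, 17.8% of the genes tested were called higher and 18.4% lower. For 21 members every sample of a genotype lay above every sample of the other, beside 49.5% of all genes tested. The shares of the members are thus near those of the whole transcriptome. The median log2 fold change was -0.04 over the members and 0.01 over all genes tested, and the median absolute log2 fold change was 0.19 and 0.27. Changes ranged from -1.03 for HDAC4 to 1.28 for RCOR2, which were the only members past 2-fold in either direction, and the 21 members that were not called lay between -0.46 and 0.46.

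**Figure D1:**
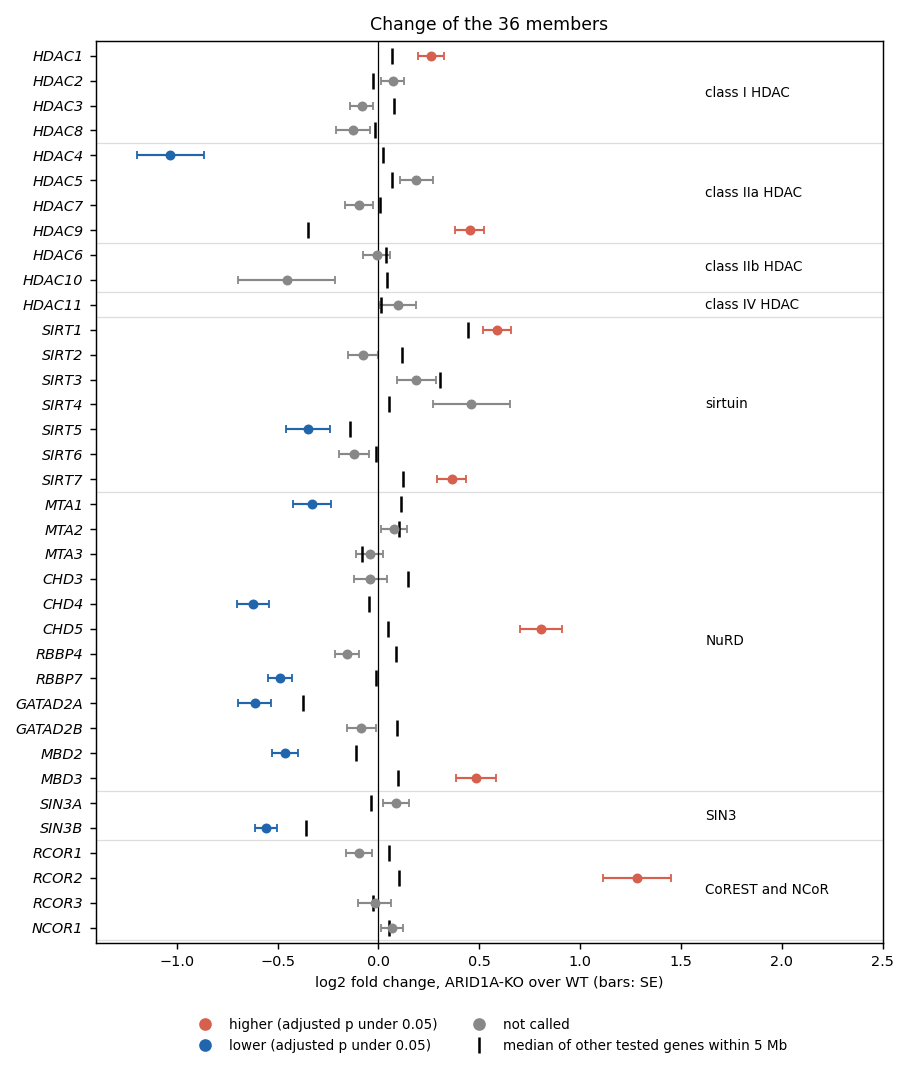
Log2 fold change of each of the 36 members, ARID1A-KO over WT (x axis), with bars for the standard error and colours for the call, ordered by group. Short black lines mark the median log2 fold change of the other tested genes within 5 Mb. Most members lie between -0.6 and 0.6, RCOR2 and HDAC4 lie farthest out at 1.28 and -1.03, and for SIRT1, GATAD2A and SIN3B the neighbours lie on the same side as the member.

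HDAC1 RNA was higher in ARID1A-KO cells by a small margin. HDAC1 (ENSG00000116478.7, chromosome 1, 32757687 to 32799236, plus strand; all gene positions are in GRCh37) had 128, 120.0 and 122 CPM in WT replicates 3, 4 and 5 and 156, 148 and 138 CPM in the corresponding ARID1A-KO replicates. Every ARID1A-KO sample was above every WT sample. The mean was 123 ± 3.9 CPM in WT cells against 148 ± 9.2 CPM in ARID1A-KO cells (SD, n = 3), which is 1.2-fold (log2 fold change 0.26 ± 0.06, SE, adjusted p = 0.012). The call was near the threshold in several fits. It was lost without ARID1A-KO replicate 3, where the log2 fold change was 0.22 and the adjusted p 0.0517. The adjusted p was 0.0479 without ARID1A-KO replicate 4 and 0.0415 without WT replicate 5. With the median of the other tested genes within 5 Mb taken off, the change was 0.19 (adjusted p = 0.0461). HDAC2, the paralogue that pairs with HDAC1 in the same complexes, had 188, 183 and 174 CPM in the WT samples and 192, 192 and 186 CPM in the ARID1A-KO samples, with overlap between the genotypes (log2 fold change 0.07 ± 0.06, SE, adjusted p = 0.378). Offsets for gene length and GC content gave it log2 fold changes of 0.23 and 0.16, which were called (adjusted p = 0.012 and 0.0374). HDAC3, the catalytic subunit of the NCoR and SMRT complexes, and HDAC8 were not called, with log2 fold changes of -0.08 ± 0.06 and -0.13 ± 0.08 (SE). Of the 4 class I deacetylases, 1 was thus called higher and none lower (25.0%, beside 36.2% of all genes tested).

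Class IIa deacetylases, which have little catalytic activity of their own and bind MEF2 transcription factors, moved in opposite directions. HDAC4 (ENSG00000068024.12, chromosome 2, 239969864 to 240323348, minus strand) had 2.5, 3.38 and 3.02 CPM in the WT samples and 1.45, 1.6 and 1.32 CPM in the ARID1A-KO samples. The groups did not overlap, and the ARID1A-KO mean was 0.489 of the WT mean (log2 fold change -1.03 ± 0.17, SE, adjusted p = 0.00132). HDAC9 (ENSG00000048052.17, chromosome 7, 18126572 to 19042039, plus strand) had 64.1, 75.6 and 71.9 CPM in the WT samples and 100.4, 94.3 and 94.5 CPM in the ARID1A-KO samples. All ARID1A-KO samples exceeded all WT samples, by 1.37-fold between the means (log2 fold change 0.45 ± 0.07, SE, adjusted p = 0.00126). For the other tested genes within 5 Mb of HDAC9 the median was -0.35, on the other side of 0, and with that median taken off the change of HDAC9 was 0.80 (adjusted p = 7.08e-05). HDAC5 and HDAC7 were not called (0.19 ± 0.08 and -0.10 ± 0.07 on the log2 scale, SE), although HDAC7 was called lower with an offset for GC content (-0.22, adjusted p = 0.0139).

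The remaining zinc-dependent enzymes gave no call. HDAC6, a mainly cytoplasmic tubulin deacetylase, had 55.1, 55.4 and 56 CPM in the WT samples and 52.4, 52.9 and 60.00 CPM in the ARID1A-KO samples and a log2 fold change of -0.01 ± 0.07 (SE). HDAC11, the only class IV enzyme, had a log2 fold change of 0.09 ± 0.09. HDAC10, a polyamine deacetylase, was the lowest member, with 0.749, 1.04 and 0.67 CPM in the WT samples and 0.558, 0.509 and 0.716 CPM in the ARID1A-KO samples (log2 fold change -0.46 ± 0.24, SE, adjusted p = 0.169). Its value is uncertain, because 66% of the 100-base words of its canonical transcript also occur in transcripts of MAPK12, which overlaps it on the same strand. Among the 11 zinc-dependent deacetylases, 3 were called, 2 higher and 1 lower (27.3%, beside 36.2% of all genes tested).

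Of the 7 sirtuins, 2 were higher, 1 was lower and 4 were not called (42.9% called, beside 36.2% of all genes tested). SIRT1, the nuclear enzyme that deacetylates p53 and histones (ENSG00000096717.7, chromosome 10, 69644427 to 69678147, plus strand), had 34.8, 33.3 and 30.8 CPM in the WT samples and 52.1, 47.6 and 48.8 CPM in the ARID1A-KO samples. The genotypes were well apart, with a 1.5-fold higher mean in ARID1A-KO cells (log2 fold change 0.59 ± 0.07, SE, adjusted p = 0.00024). The 60 other tested genes within 5 Mb of SIRT1 had a median of 0.44 on the log2 scale, and with that median taken off the change of SIRT1 was 0.14 (adjusted p = 0.155), so its call was lost. SIRT7, a nucleolar deacylase (ENSG00000187531.9, chromosome 17, 79869815 to 79879199, minus strand), had 35.1, 32.9 and 32.5 CPM in the WT samples and 39.8, 44.1 and 45.3 CPM in the ARID1A-KO samples, without overlap (log2 fold change 0.36 ± 0.07, SE, adjusted p = 0.00389). It overlaps MAFG on the same strand, and no 100-base word of its canonical transcript occurs in another gene.

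SIRT5, a mitochondrial desuccinylase, had 8.17, 7.47 and 8.85 CPM in the WT samples and 6.52, 5.97 and 6.71 CPM in the ARID1A-KO samples, lower in every ARID1A-KO sample (log2 fold change -0.35 ± 0.11, SE, adjusted p = 0.0333). This call was lost in 4 of the 6 fits that left out a sample: the adjusted p was 0.0733 or 0.1 when WT replicate 3 or 5 was left out, and 0.0829 or 0.138 when ARID1A-KO replicate 3 or 4 was. It was also lost with the GC offset (adjusted p = 0.0537) and with the neighbours' median taken off (adjusted p = 0.179). SIRT2, SIRT3, SIRT4 and SIRT6 had log2 fold changes of -0.08 ± 0.08, 0.19 ± 0.10, 0.46 ± 0.19 and -0.12 ± 0.07 (SE). With the GC offset, SIRT2 and SIRT6 were called lower (adjusted p = 0.048 and 0.00866).

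Among the groups of members NuRD had most calls: 7 of its 12 genes were called (58.3%, beside 36.2% of all genes tested), 2 higher and 5 lower. The 5 genes not called had log2 fold changes between -0.15 and 0.08. Of the further subunits described below, 2 of 6 for NuRD (33.3%), 3 of 5 for NCoR and SMRT (60.0%) and 2 of 3 for MiDAC (66.7%) were called. In each of its 5 paralogue families at least 1 gene was called. The remodeller CHD4 is the main ATPase of NuRD and was the most abundant member (ENSG00000111642.10, chromosome 12, 6679249 to 6716642, minus strand). It had 1377, 1189 and 1429.6 CPM in the WT samples and 857, 855 and 882 CPM in the ARID1A-KO samples. The lowest WT sample was far above the highest ARID1A-KO sample, and the mean fell by 35.1% (log2 fold change -0.62 ± 0.08, SE, adjusted p = 0.000343). CHD5, a paralogue best known from neurons (ENSG00000116254.13, chromosome 1, 6161853 to 6240183, minus strand), had 8.44, 9.65 and 8.54 CPM in the WT samples and 15.6, 17.1 and 13.9 CPM in the ARID1A-KO samples. It moved the other way, 1.75-fold higher (log2 fold change 0.81 ± 0.10, SE, adjusted p = 0.000375), at a level far below that of CHD4. CHD3, the remaining remodeller of the family, had 243, 214 and 268 CPM in the WT samples and 227, 236 and 242 CPM in the ARID1A-KO samples, with overlap (log2 fold change -0.04 ± 0.08, SE, adjusted p = 0.737).

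The histone chaperones RBBP4 and RBBP7 are shared between NuRD and SIN3 complexes. RBBP7 (ENSG00000102054.13, chromosome X, 16857406 to 16888537, minus strand) had 147, 135 and 146 CPM in the WT samples and 104, 99.8 and 102 CPM in the ARID1A-KO samples. All ARID1A-KO values lay below the WT values, at 0.713 of the WT mean (log2 fold change -0.49 ± 0.06, SE, adjusted p = 0.000247), and the neighbours of RBBP7 had a median of -0.01. RBBP4 had 216, 205 and 216 CPM in the WT samples and 198, 190.0 and 184 CPM in the ARID1A-KO samples, likewise without overlap but not called (log2 fold change -0.15 ± 0.06, SE, adjusted p = 0.0664). With the median of its neighbours taken off, RBBP4 was called lower, at -0.24 (adjusted p = 0.0131). Of its 100-base words, 1.64% also occur in the pseudogenes RBBP4P1 and RBBP4P2.

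GATAD2A and GATAD2B bridge the methyl-CpG binding subunit to the remodeller. GATAD2A (ENSG00000167491.13, chromosome 19, 19496635 to 19619740, plus strand) had 158, 153 and 169.8 CPM in the WT samples and 104, 116 and 94.7 CPM in the ARID1A-KO samples. The groups did not overlap, and the mean fell by 34.7% (log2 fold change -0.61 ± 0.08, SE, adjusted p = 0.000419). The median over the other tested genes within 5 Mb of GATAD2A was -0.37 on the log2 scale, and with that taken off its change was -0.24 (adjusted p = 0.0493). GATAD2B had 58, 57.9 and 59.97 CPM in the WT samples and 58.9, 56.7 and 50.2 CPM in the ARID1A-KO samples and was not called (log2 fold change -0.09 ± 0.07, SE, adjusted p = 0.388).

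MBD2 and MBD3 exclude each other from NuRD, and MBD2 is the one that binds methylated CpG strongly. MBD2 (ENSG00000134046.7, chromosome 18, 51679079 to 51751158, minus strand) had 48.8, 48 and 49.7 CPM in the WT samples and 37.4, 33.8 and 35.1 CPM in the ARID1A-KO samples. It was lower in every ARID1A-KO sample, and the mean fell by 27.5% (log2 fold change -0.46 ± 0.06, SE, adjusted p = 0.000529). MBD3 (ENSG00000071655.13, chromosome 19, 1576639 to 1592882, minus strand) had 78.2, 73.1 and 93.4 CPM in the WT samples and 102, 121 and 119 CPM in the ARID1A-KO samples. Each ARID1A-KO sample was above each WT sample, and the means differed by 1.4-fold (log2 fold change 0.48 ± 0.10, SE, adjusted p = 0.00501). This pair was the NuRD family, beside CHD4 and CHD5, in which a called rise stood beside a called fall. Of the 100-base words of MBD3, 12.0% also occur in transcripts of ENSG00000267059, a gene listed under the name UQCR11.

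The MTA proteins are the scaffolds that hold HDAC1 or HDAC2 in NuRD. MTA1 (ENSG00000182979.13, chromosome 14, 105886159 to 105937066, plus strand) had 31.3, 28.9 and 31.8 CPM in the WT samples and 21.5, 24.4 and 27.2 CPM in the ARID1A-KO samples, without overlap (log2 fold change -0.33 ± 0.09, SE, adjusted p = 0.0223). Its call was lost in 4 of the 6 fits without a sample, with an adjusted p of 0.0636 or 0.068 when WT replicate 3 or 5 was left out, and 0.0813 or 0.0692 when ARID1A-KO replicate 3 or 4 was, and 5.92% of its 100-base words also occur in TEX22. MTA2, the most abundant scaffold, had 132, 127 and 142 CPM in the WT samples and 136, 139 and 148 CPM in the ARID1A-KO samples (log2 fold change 0.08 ± 0.06, SE, adjusted p = 0.391). MTA3 had a log2 fold change of -0.04 ± 0.07 (SE) and was not called.

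SIN3A and SIN3B are alternative scaffolds of the SIN3 complex. SIN3B, which is best known for repression of cell cycle genes in quiescent cells (ENSG00000127511.5, chromosome 19, 16940211 to 16991164, plus strand), had 71.2, 73.1 and 72.5 CPM in the WT samples and 47.5, 49.9 and 49.98 CPM in the ARID1A-KO samples. Replicates agreed closely and the genotypes did not overlap. The mean fell by 32% (log2 fold change -0.56 ± 0.06, SE, adjusted p = 9.14e-05), with the smallest adjusted p among the members. The median of the neighbours of SIN3B was -0.36 on the log2 scale, and SIN3B stayed called with that taken off, at -0.20 (adjusted p = 0.0245). SIN3A had 128, 128 and 127 CPM in the WT samples and 141, 141 and 125 CPM in the ARID1A-KO samples and was not called (log2 fold change 0.09 ± 0.07, SE, adjusted p = 0.332), although an offset for gene length gave 0.21 (adjusted p = 0.0323).

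The CoREST proteins RCOR1, RCOR2 and RCOR3 connect KDM1A with HDAC1 and HDAC2. RCOR2 (ENSG00000167771.5, chromosome 11, 63678693 to 63684316, minus strand) had 1.15, 1.47 and 1.31 CPM in the WT samples and 2.72, 3.46 and 3.39 CPM in the ARID1A-KO samples. Every ARID1A-KO sample was above every WT sample, and the 2.43-fold rise (log2 fold change 1.28 ± 0.17, SE, adjusted p = 0.000375) was the largest change of any member, at one of the lowest levels. RCOR1, with 38.4, 36.3 and 36.3 CPM in the WT samples and 35.5, 34.9 and 33.4 CPM in the ARID1A-KO samples, and RCOR3, with 35.5, 31 and 30.2 CPM in the WT samples and 31.2, 30.8 and 33.4 CPM in the ARID1A-KO samples, were not called (-0.10 ± 0.06 and -0.02 ± 0.08 on the log2 scale, SE). NCOR1, the scaffold of HDAC3 complexes, had 103, 97 and 100.5 CPM in the WT samples and 106, 105 and 104 CPM in the ARID1A-KO samples (log2 fold change 0.07 ± 0.06, SE, adjusted p = 0.389). The length offset gave it 0.22 (adjusted p = 0.0133).

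**Figure D2:**
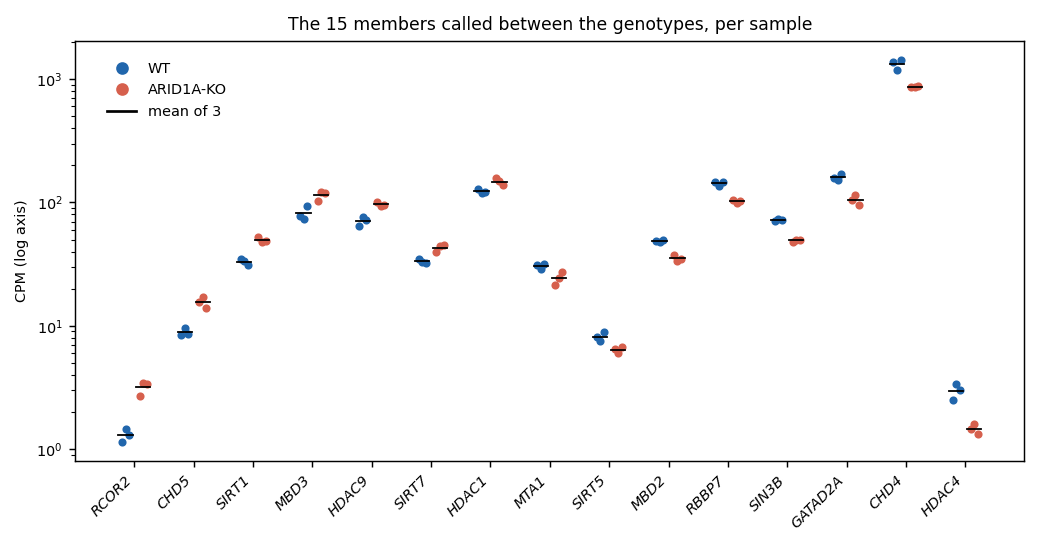
CPM (log axis) of the 15 called members in each sample, with WT in blue, ARID1A-KO in red and the mean of 3 as a line, ordered by log2 fold change from RCOR2 to HDAC4. The points of the genotypes are apart for each of the 15 genes, CHD4 stands highest at 1189 to 1430 CPM in WT, and RCOR2 and HDAC4 stand lowest, under 4 CPM.

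For some members the surrounding genes also differed between the genotypes. For 5 of the 36 members the other tested genes within 5 Mb had a median log2 fold change past 0.3 in either direction. These were SIRT1, HDAC9, GATAD2A and SIN3B among the called members, and SIRT3, with 0.31, among the others. GATAD2A and SIN3B lie within 5 Mb of each other on chromosome 19, so their neighbours are partly the same genes. Of the 15 called members, 13 stayed called once the median of the neighbours was taken off, and SIRT1 and SIRT5 did not. CHD4, RBBP7, CHD5, RCOR2 and HDAC4 lay among neighbours with medians between -0.05 and 0.10.

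Levels of different genes were compared as CPM per kb of exonic length, where the length joins the exons of all isoforms. In WT cells CHD4 led with 178 ± 17 (SD, n = 3), followed at a distance by MTA2 with 31.6 ± 1.8, HDAC1 with 30.7 ± 0.98, CHD3 with 24.8 ± 2.7, RBBP4 with 22.4 ± 0.70, GATAD2A with 22 ± 1.2 and RBBP7 with 19.3 ± 0.89. MTA2 and HDAC1 lay within their spread, as did CHD3, RBBP4 and GATAD2A. HDAC3, MBD3 and HDAC7 came next, at 15.8, 15.8 and 15.1, and did not differ beyond their spread. At the other end were HDAC10 with 0.166 ± 0.040, HDAC4 with 0.221 ± 0.033, RCOR2 with 0.478 ± 0.057, CHD5 with 0.897 ± 0.068 and SIRT4 with 1.001 ± 0.17. RCOR2, HDAC4 and CHD5, the 3 members with the largest fold changes, were among the 5 least abundant.

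In ARID1A-KO cells CHD4 was still first, at 116 ± 2.1 CPM per kb, and HDAC1 was second at 36.8 ± 2.3, ahead of MTA2 at 33.3 ± 1.4. MBD3 moved from place 9 to place 5 among the 36 members, and SIN3B from 15 to 20. CHD4 was first on every scale tried: the TPM deposited by the authors, CPM not divided by length, counts without regard to strand and the length of the canonical transcript. The order below it depended on the length used. With the canonical transcript, which is 2281 bases for RBBP7 against 7392 bases of joined exons, RBBP7 was second in WT cells at 62.6 followed by HDAC1 at 58.1 CPM per kb.

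**Figure D3:**
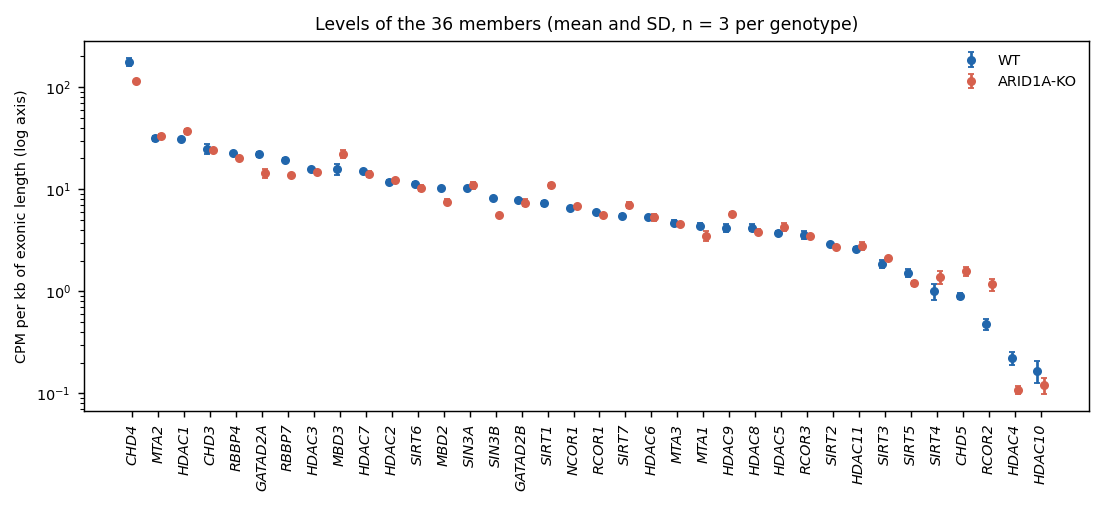
Level of each member (CPM per kb of exonic length, log axis) in WT (blue) and ARID1A-KO (red) cells, as means with SD of 3 samples, ordered by the WT level. CHD4 stands alone at 178 and 116 CPM per kb, and the last 4 genes, CHD5, RCOR2, HDAC4 and HDAC10, stay below 2.

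Since paralogues can replace each other in a complex, the share of each family sum (CPM per kb) was compared for the first-named gene of 10 families. Among genes not first-named, the shares of HDAC2 within class I, HDAC5, MTA3 and RCOR3 overlapped between the genotypes. The share of the first-named gene was apart in all 10 families, with every sample of a genotype above every sample of the other. Among single genes, 49.5% of all genes tested were apart in this way, and no such rate was worked out for shares. HDAC1 is first-named both in its pair with HDAC2 and in class I as a whole, so the families are not independent. A two-sided exact permutation test gave p = 0.1 for each, the smallest value that 3 against 3 samples allow, and 0.1 after Benjamini-Hochberg adjustment over the 10 families, so none of these differences could pass a threshold of 0.05.

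The largest shift was in the MBD pair. MBD2 made up 40.7, 41.9 and 36.9% in the WT samples and 28.7, 23.5 and 24.5% in the ARID1A-KO samples of the sum of MBD2 and MBD3, a difference of 14.3 percentage points. SIN3A followed with 55.9, 55.3 and 55.3% in the WT samples and 67.7, 66.6 and 63.8% in the ARID1A-KO samples of the SIN3 sum, 10.5 points more. GATAD2A had 73.7% ± 0.65 among WT and 66% ± 1.7 among ARID1A-KO samples (SD, n = 3) of the GATAD2 sum, and RBBP4 had 53.7% ± 0.38 among WT and 59.4% ± 0.72 among ARID1A-KO samples of the RBBP sum. Which gene of the RBBP pair held more depended on the length used. With the canonical transcript length, RBBP4 had 26.9 and RBBP7 62.6 CPM per kb in WT cells. SIN3B and GATAD2A lie in the same region of chromosome 19, where their neighbours had medians of -0.36 and -0.37. Whether the shifts of the SIN3 and GATAD2 families are separate was not tested. The shares say how RNA was divided between paralogues and not how much of each protein was in a complex.

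The CHD family was dominated by CHD4 in both genotypes, with 87.4% ± 0.30 among WT and 81.8% ± 0.34 among ARID1A-KO samples (SD, n = 3). The share of CHD3 was 12.1% ± 0.32 among WT and 17% ± 0.32 among ARID1A-KO samples, and that of CHD5 was 0.445% ± 0.079 among WT and 1.11% ± 0.13 among ARID1A-KO samples. MTA1 had 10.8% ± 0.25 among WT and 8.45% ± 0.68 among ARID1A-KO samples of the MTA sum, and MTA2 had 77.6% ± 0.70 among WT and 80.5% ± 0.076 among ARID1A-KO samples. RCOR2 had 4.81% ± 0.74 among WT and 11.4% ± 1.4 among ARID1A-KO samples of the CoREST sum, and RCOR1 had 59.7% ± 0.88 among WT and 54.5% ± 2.1 among ARID1A-KO samples.

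HDAC1 made up 72.4, 71.7 and 73% in the WT samples and 75.8, 74.8 and 74.1% in the ARID1A-KO samples of the sum of HDAC1 and HDAC2, 2.54 points more. Which gene of this pair held more depended on the division by length, as the joined exons are 4009 bases for HDAC1 and 15461 for HDAC2. Without it HDAC2 led, with means of 181 against 123 CPM in WT and 190 against 148 CPM in ARID1A-KO cells. Within all 4 class I enzymes, per kb, the share of HDAC1 was 49.2% ± 0.13 among WT and 54.2% ± 1.7 among ARID1A-KO samples (SD, n = 3). HDAC3 had 25.3% ± 0.40 among WT and 22% ± 0.99 among ARID1A-KO samples. In class IIa, HDAC7 had most of the RNA, with 64.9% ± 0.33 among WT and 58.2% ± 1.9 among ARID1A-KO samples, and HDAC9 had 18% ± 1.0 among WT and 23.7% ± 2.0 among ARID1A-KO samples. HDAC4 held 0.947% ± 0.11 among WT and 0.448% ± 0.049 among ARID1A-KO samples of the class IIa sum. No share of a first-named gene changed direction with the TPM deposited by the authors, without division by length, with unstranded counts, with canonical transcript lengths or without any 1 sample.

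**Figure D4:**
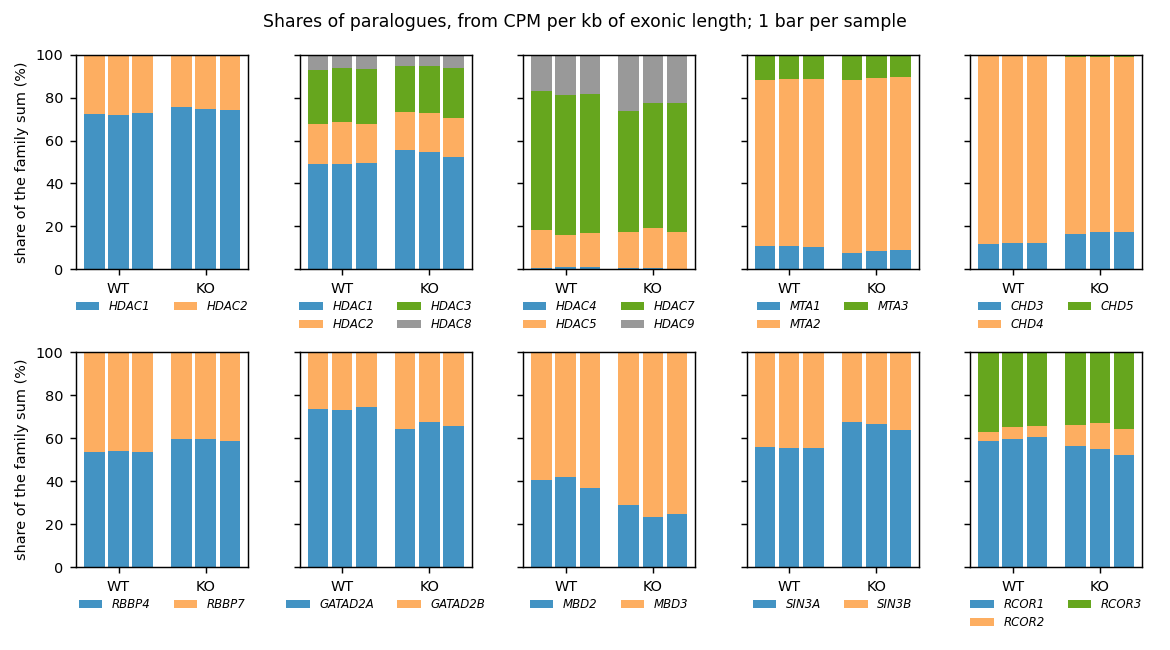
Share of each paralogue in the sum of its family (percent, from CPM per kb of exonic length), 1 bar per sample, with the 3 WT samples left and the 3 ARID1A-KO samples right in each panel. In the MBD2 and MBD3 panel the share of MBD2 goes from 36.9 to 41.9% in WT to 23.5 to 28.7% in ARID1A-KO samples, and CHD4 fills over 80% of the CHD panel in every sample.

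Of 34 further subunits of these complexes, 33 were tested and 11 were called, 6 higher and 5 lower. This is 33.3%, beside 36.2% of all genes tested, and 7 were called with the neighbours' median taken off. SAP25 had too few counts. TBL1XR1, a WD40 subunit of NCoR and SMRT complexes (ENSG00000177565.11, chromosome 3, 176737143 to 176915261, minus strand), had 93.7, 75.4 and 87.9 CPM in the WT samples and 45.9, 42.7 and 45.4 CPM in the ARID1A-KO samples, without overlap (log2 fold change -0.94 ± 0.08, SE, adjusted p = 4.56e-05), and CORO2A, another component of NCoR complexes, had 15.9, 15.6 and 18.4 CPM in the WT samples and 9.08, 9.46 and 9.37 CPM in the ARID1A-KO samples (log2 fold change -0.84 ± 0.09, SE, adjusted p = 0.000147). The neighbours of TBL1XR1 had a median of -0.31, and with that taken off its change was -0.63 (adjusted p = 0.000574). Of the 3 subunits of the mitotic deacetylase complex MiDAC, named after their values were seen, DNTTIP1 and MIDEAS were called higher (0.40 ± 0.08 and 0.33 ± 0.08 on the log2 scale, SE) and TRERF1 was not called. The neighbours of MIDEAS had a median of 0.37, and with that taken off its change was -0.04 (adjusted p = 0.739), so its call was lost and its sign turned.

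Among NuRD-associated proteins, ZNF512B had 2.79, 3.1 and 3.21 CPM in the WT samples and 1.28, 1.46 and 1.83 CPM in the ARID1A-KO samples (log2 fold change -0.99 ± 0.17, SE, adjusted p = 0.00185). PWWP2B, a variant NuRD subunit, had 6.73, 6.26 and 7.01 CPM in the WT samples and 9.08, 11 and 12.7 CPM in the ARID1A-KO samples (log2 fold change 0.72 ± 0.13, SE, adjusted p = 0.00275). The sign of the change thus differed between these NuRD-associated genes too. ING1, the SIN3 subunit that reads trimethylated lysine 4 of histone H3, had 13.9, 13.8 and 13.8 CPM in the WT samples and 8.83, 9.77 and 8.73 CPM in the ARID1A-KO samples, lower in each ARID1A-KO sample (log2 fold change -0.61 ± 0.09, SE, adjusted p = 0.000637). With the median of its neighbours (-0.37) taken off, ING1 was at -0.24 (adjusted p = 0.0634) and was not called. KDM1A, the demethylase of CoREST, was not called (-0.12 ± 0.06 on the log2 scale, SE); it was named after its values were seen.

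Of 26 DNA-bound factors known to recruit these complexes, 24 were tested and 10 were called (41.7%, beside 36.2% of all genes tested), 6 higher and 4 lower, and GFI1B and SALL4 had too few counts. Without ARID1A-KO replicate 4 the number called was 6. MEF2D, a partner of the class IIa deacetylases, had 48.3, 52 and 47.4 CPM in the WT samples and 77.1, 80.1 and 67.8 CPM in the ARID1A-KO samples, a 1.52-fold rise (log2 fold change 0.61 ± 0.08, SE, adjusted p = 0.000328). NR1D2, a nuclear receptor that recruits NCoR and HDAC3, had 78.2, 96.6 and 69.8 CPM in the WT samples and 57.5, 56.6 and 52.4 CPM in the ARID1A-KO samples (log2 fold change -0.56 ± 0.11, SE, adjusted p = 0.00374). ZEB2, a zinc finger repressor, was near the lower limit of detection, with 0.39, 0.282 and 0.241 CPM in the WT samples and 0.852, 0.6 and 0.761 CPM in the ARID1A-KO samples (log2 fold change 1.28 ± 0.26, SE, adjusted p = 0.0043).

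IKZF1, a lymphoid factor that binds NuRD, had 1.78, 2.49 and 2.23 CPM in the WT samples and 1.48, 1.47 and 1.24 CPM in the ARID1A-KO samples (log2 fold change -0.64 ± 0.18, SE, adjusted p = 0.0196). Its call was lost without WT replicate 4 (adjusted p = 0.0604), WT replicate 5 (0.0544), ARID1A-KO replicate 4 (0.0506) or ARID1A-KO replicate 5 (0.0529). The summed blood markers were 1.72 to 2.91 CPM in WT and 0.338 to 0.898 CPM in ARID1A-KO samples, and their part in this result was not tested. REST, which recruits SIN3 and CoREST to neuronal genes, was named after its values were seen and had 82, 87.3 and 80.6 CPM in the WT samples and 112, 108 and 103 CPM in the ARID1A-KO samples (log2 fold change 0.36 ± 0.06, SE, adjusted p = 0.00162).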

How the data were processed

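RNA was measured in untreated AID-DIvA cells, with 3 samples per genotype. Per the labels, libraries were made from total RNA with the Illumina TruSeq Stranded Total RNA kit and sequenced as 100 bp pairs, while the molecule is given as polyA RNA. The authors aligned the reads with STAR in the Roddy workflow to GRCh37 and counted them with featureCounts, and the deposited counts are whole numbers and not normalized. TPM values deposited by the authors were a further column, of which the reverse-stranded column was used as an alternative scale. The reverse-stranded counts were used for all tests, since forward counts were 5.83 to 6.15% of them. Depth was 54512105 to 84088708 counts per sample, and the biological coefficient of variation common to all genes was 0.111.

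Genotypes came from the sample titles. After filterByExpr and TMM normalization, genes were tested with edgeR 4.0.16 (quasi-likelihood test, R 4.3.3), without covariates and with Benjamini-Hochberg adjustment over all 19599 genes. Paralogue shares were tested with exact permutation tests over samples in SciPy 1.17.1 under Python 3.11.15. The neighbours of a gene are the other tested genes within 5 Mb. Fits were tested on simulated data. The members and all lists were chosen with earlier results of these data known. Full values are given for HDAC1 and the 14 called members of smallest adjusted p, of which HDAC1 is 1. Of other lists, called genes with an absolute log2 fold change of at least 0.5 are named, up to 6 per list. Sequences are for members on which results turn. Replicate numbers were not taken to pair the samples (see the limits). Libraries of a genotype differed by more than sampling noise (chi-square of 6.95 to 33.4 per gene).

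The alternatives were unstranded counts, DESeq2 1.42.0, RLE size factors, a minimum of 10 counts in all samples, no filter, a replicate block, leaving out each sample, a threshold of 0.01 on the adjusted p, loess offsets (span 0.3) on exonic length and GC content, and the neighbours' median as an offset. Canonical transcript lengths were added after the data were seen. Protein sequences were not used here, and results of some genes are not reported here.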

Additional observations from a re-analysis of the deposited data

How the results depend on the processing

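Of the 15 called members, 11 kept their call and direction in all 15 alternative fits at the same threshold, and the exceptions were HDAC1, SIRT1, SIRT5 and MTA1. Over 576 pairs of a member and an alternative, no called member changed direction. The number of called members was 12 to 15 without any 1 sample, 12 at an adjusted p under 0.01, 14 with the neighbours' median taken off and 18 with either loess offset. An adjusted p under 0.01 left 4414 genes called of all tested, and 7 of the other subunits and 6 of the recruiters. With the neighbours' median taken off, 7 other subunits were called, and without 1 sample the recruiters called were 6 to 12.

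Uncalled members whose small change crossed 0 were HDAC6 with the length offset (0.083) and without ARID1A-KO replicate 3 or 4 (0.029 and 0.020, in a range of -0.075 to 0.029 over the samples left out), HDAC11 with the GC offset (-0.058), SIRT3 with the neighbours taken off (-0.12), MTA2 with the GC offset (-0.0071) and the neighbours (-0.025), MTA3 with the length offset (0.050) and the neighbours (0.040), CHD3 with the length offset (0.040) and without WT replicate 5 (0.036, in a range of -0.12 to 0.036), and RCOR3 with the length offset (0.051), the GC offset (0.061), the neighbours (0.010), without WT replicate 3 (0.047) and without ARID1A-KO replicate 4 (0.0061, in a range of -0.066 to 0.047). The cause was not tested.

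Same-numbered samples did not deviate together in all pairs (correlations of -0.177, 0.268 and 0.18 for numbers 3, 4 and 5), so the numbers were not taken to pair the samples. Not every sample correlated best with its own number. These values do not settle whether the samples were paired. With the replicate number as a block, 7477 genes, 15 members, 12 other subunits, 12 recruiters and 11 of the REST target genes were called. Genes of a few CPM, such as HDAC10 and ZEB2, are limited by depth, and the joined exon length limits levels between genes.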

Other observations

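The corepressor complexes act on known genes, and a list of 20 neuronal genes held down by REST with CoREST and HDACs in other cells was read from the same fit. Of the 20, 14 were tested and 10 were called (71.4%), 6 higher and 4 lower, beside 36.2% of all genes tested, and SCG3, CHGA, GRIN1, SYT4, CELF3 and NEFM had too few counts. The list was chosen with earlier results of these data known, so its share called only describes these genes. VGF, a secreted neuropeptide precursor, had 24.5, 38.4 and 26.1 CPM in the WT samples and 127, 162 and 120.5 CPM in the ARID1A-KO samples (log2 fold change 2.20 ± 0.18, SE, adjusted p = 2.5e-05). SYP, a synaptic vesicle protein, had 6.4, 15.8 and 7.84 CPM in the WT samples and 42, 43.9 and 30.6 CPM in the ARID1A-KO samples (log2 fold change 1.95 ± 0.30, SE, adjusted p = 0.000915). TUBB3, the neuronal beta-tubulin, had 2.64, 1.86 and 2.39 CPM in the WT samples and 5.05, 5.9 and 4.68 CPM in the ARID1A-KO samples (log2 fold change 1.18 ± 0.17, SE, adjusted p = 0.000582), read from the row with counts of a name listed in more than 1 row. The neighbours of TUBB3 had a median of 0.42, and with that taken off its change was 0.76 (adjusted p = 0.00724). SYN1, which coats synaptic vesicles, was higher as well, from 0.495, 0.704 and 0.43 to 1.57, 1.77 and 1.36 CPM (log2 fold change 1.51 ± 0.22, SE, adjusted p = 0.000777).

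Other genes of the list were lower. L1CAM, a neural adhesion molecule, had 27.3, 24.3 and 32.8 CPM in the WT samples and 12.9, 14.9 and 15 CPM in the ARID1A-KO samples (log2 fold change -0.98 ± 0.12, SE, adjusted p = 0.000241). SNAP25, a SNARE protein of synapses, had 7.94, 8.27 and 8.88 CPM in the WT samples and 5.71, 4.73 and 5.03 CPM in the ARID1A-KO samples (log2 fold change -0.70 ± 0.11, SE, adjusted p = 0.00138). For each of these 6 genes, which were named by their call and adjusted p, the genotypes did not overlap. Of the 14 tested, 9 were without overlap, beside 49.5% of all genes tested. SCN2A was called lower although the genotypes overlapped (log2 fold change -1.13, adjusted p = 0.0199). The list thus held genes moving in both directions, with a median log2 fold change of 0.20 over the 14 tested. No test of the list as a whole was made.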
